A study of Mus musculus with 6 samples.

Results

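The mouse heat shock proteins and their J-domain co-chaperones were described in liver RNA as 64 genes, of 34352 in the deposited table with symbols. Members were the genes whose symbol starts with Hspa, Hspb, Hspd, Hspe, Hsph, Hsp90, Dnaja, Dnajb or Dnajc followed by a digit, without pseudogenes and without Hspa5, Hsp90b1, Dnajb9 and Dnajc3, which belong to the stress response of the endoplasmic reticulum. No symbol has Hsp90 followed directly by a digit, so the cytosolic HSP90 genes Hsp90aa1 and Hsp90ab1 are not members. They are given beside the members as partners, and were chosen after their values were seen. The members are 12 Hspa genes, 1 Hsph gene, 2 chaperonin genes (Hspd1 and Hspe1), 7 Hspb genes, 4 Dnaja genes, 12 Dnajb genes and 26 Dnajc genes.

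The cadmium-exposed mice received cadmium chloride (CdCl2) daily by gavage at 20 mg/kg for 90 days and the control mice received 0 mg/kg. All were wild type (WT) male C57BL/6 mice aged 6 to 8 weeks per the labels, with 6 mice in each group and 3 libraries from each group. The labels do not say which mice gave which library, and the p-values reflect differences among libraries, which may be technical. Fragmented liver RNA was put through a precipitation with an antibody against N6-methyladenosine (m6A), and these libraries hold the RNA that stayed unbound, which the labels call input. RNA abundance and the share of a transcript bound by the antibody therefore cannot be told apart in these values, and in bulk liver neither can fewer cells of a type and less RNA per cell.

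Heat shock proteins are molecular chaperones: HSP70 proteins (Hspa) bind exposed stretches of unfolded polypeptides and release them in a cycle driven by ATP. J-domain proteins (Dnaja, Dnajb and Dnajc) bring clients to HSP70 and speed up its ATP hydrolysis, and HSP110 proteins such as Hsph1 exchange its nucleotide. The small heat shock proteins (Hspb) hold unfolding proteins, Hspd1 with Hspe1 forms the folding chamber of mitochondria, and HSP90 matures kinases and steroid receptors that HSP70 hands on. The transcription factor Hsf1 drives the inducible genes among them through repeats of the heat shock element, and in mouse liver the transcripts of several of these genes are known to vary over the day.

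The 6 libraries held 42115960 to 68587128 reads. Expression was given as FPKM, that is, fragments per kilobase of gene after scaling by library size, and was compared as log2(FPKM + 1) with limma over 9908 genes with an FPKM of at least 1 in at least 3 libraries. A gene is named as called, higher or lower where its Benjamini-Hochberg adjusted p over these genes was under 0.05. At an unadjusted p under 0.05 in this limma fit, 569 of the 9908 genes were lower and 2105 were higher. Metallothioneins, which bind the metal, were higher: Mt1 had 378, 729 and 586 FPKM in cadmium libraries and 7.39, 21.4 and 41.3 FPKM in control libraries (adjusted p = 0.0149), and Mt2 was called as well (adjusted p = 0.00688). Hepatocyte markers were the most abundant of the cell type lists, with sums of 16077 to 24504 FPKM in cadmium and 15774 to 23893 FPKM in control libraries. Cadmium replicate 2 and control replicate 1 resembled each other, with the lowest hepatocyte sum of their group in each case. Results are therefore also given without this pair of libraries where that changed a call.

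Among the members, Hspa8, the constitutive cytosolic HSP70, its HSP110 partner Hsph1 and 4 J-domain co-chaperones of the cytosol were lower in cadmium-exposed liver. The 7 members called lower were Hspa8, Hspa2, Hsph1, Dnaja1, Dnaja2, Dnajb1 and Dnajb6, at 32.2% to 71.9% of the control mean, and the 1 member called higher was Dnajc28. The test reached 44 members, so that 7 of 44 were called lower where 1.82% of all 9908 genes were, and 1 of 44 was called higher where 7.86% of all genes were. Of the 7, Hspa2, passed the filter on low values through its control libraries alone and so had to differ. These shares depend on scaling: after quantile normalization 9 members were called lower and 0 higher, against 3.01% and 3.5% of all genes, and on the deposited log2 values 10 lower and 0 higher, against 4.98% and 3.85%; 1 member was higher at an unadjusted p under 0.05 in each. By voom on recovered reads 8 were called lower and 1 higher, against 3.82% and 5.34%. With the batch number of the labels as a block in the fit, 3 members (Dnaja1, Hspa8 and Hsph1) were called lower, against 0.646% of all genes, and 0 higher, against 1.86% of all genes; 2 members were higher at an unadjusted p under 0.05. In 11 of 44 tested members every cadmium library lay below every control library, against 7.24% of all genes. In 6 of 44 every cadmium library lay above, against 26.4% of all genes. These calls rest on few libraries. Without cadmium replicate 1, cadmium replicate 3 or control replicate 3, limma called 0 members lower. Of all genes 0.696%, 0.232% and 0.757% were called lower in these fits. At an unadjusted p under 0.05, 7, 7 and 9 members were lower there, and the share of all genes at that threshold was not worked out. Members called lower were 4 without cadmium replicate 2, 5 without control replicate 1 and 2 without control replicate 2. The shares of all genes were 1.38%, 2.44% and 0.959%.

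**Figure D1:**
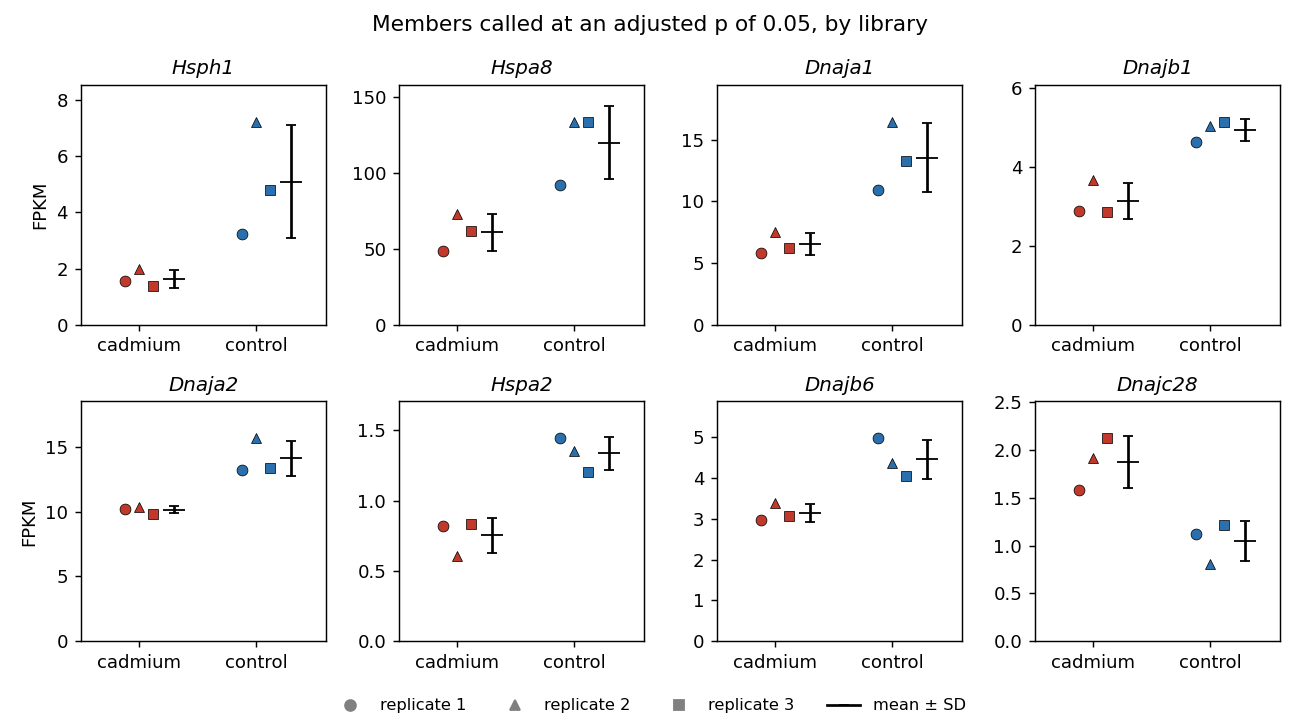
FPKM (vertical axes, each from 0) of the 8 called members in each library, with cadmium in red, control in blue, 1 symbol shape per replicate and the mean ± SD beside them. In each panel the 3 cadmium libraries lie on one side of the 3 control libraries: below them in 7 genes and above them in Dnajc28.

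Hspa8, the constitutive cytosolic HSP70 and the most abundant member, had 48.6, 72.8 and 61.5 FPKM in cadmium libraries 1 to 3 and 92.2, 134 and 134 FPKM in control libraries 1 to 3. Every cadmium library was below every control library, and the mean was 50.8% of the control mean. The log2 difference was -0.96 (SE 0.21), with a limma adjusted p of 0.0339, or 0.0474 with the batch block. Hspa8 lies at chr9:40800984-40810087 on the plus strand of GRCm38 and holds the small nucleolar RNA genes Snord14c, Snord14d and Snord14e in its body, whose reads cannot be told apart from its own here. Hspa8 took 12.7%, 16.6% and 14.9% of the summed FPKM of all 64 members in cadmium libraries and 20.6%, 24.0% and 24.8% in control libraries.

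Hsph1, the HSP110 that exchanges nucleotide on HSP70, differed most among the members. It had 1.56, 1.98 and 1.37 FPKM in cadmium libraries and 3.23, 7.23 and 4.80 FPKM in control libraries, without overlap, and its cadmium mean was 32.2% of the control mean. Its control libraries spread widely, with a coefficient of variation of 39.6% against 19.2% in cadmium. The log2 difference was -1.16 (SE 0.24, limma adjusted p = 0.0354, or 0.0486 with the batch block). It was called lower again without the look-alike pair of libraries. Hsph1 lies at chr5:149614287-149636376 on the minus strand and no other annotated gene overlaps it.

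Hspa2, an HSP70 most abundant in testis, was a low gene here. It had 0.818, 0.609 and 0.832 FPKM in cadmium libraries and 1.44, 1.35 and 1.21 FPKM in control libraries, from 113 to 272 reads a library. All 3 cadmium libraries were under the FPKM minimum of 1 and all 3 control libraries were above it, so this gene entered the test through its control libraries and had to differ. The log2 difference was -0.41 (SE 0.08, adjusted p = 0.0285), and the call was lost with the batch block (adjusted p = 0.0791) and without the look-alike libraries (0.110).

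The remaining tested Hspa genes were not called by limma (adjusted p 0.333 to 0.728), while the authors' deposited table has Hspa4 and Hspa4l, relatives of Hsph1, lower at an FDR of 0.0426 and 0.0453. Hspa9, the HSP70 of the mitochondrial matrix that pulls in imported proteins, had 52.5, 54.3 and 56.7 FPKM in cadmium libraries and 51.1, 63.6 and 59.4 FPKM in control libraries. These groups overlapped, and the log2 difference of -0.08 (SE 0.13) had an adjusted p of 0.723. The stress-inducible Hspa1a and Hspa1b, singled out after their values were seen, overlapped between groups. Hspa1b had 1.07, 2.78 and 1.56 FPKM in cadmium libraries and 1.86, 6.09 and 3.03 FPKM in control libraries, with replicate 2 the highest library of both groups and an adjusted p of 0.333, or 0.0549 with the batch block. Hspa1a had 0.575, 1.52 and 0.832 FPKM in cadmium libraries and 0.625, 2.00 and 1.14 FPKM in control libraries (adjusted p = 0.728), again highest in replicate 2 of both groups. These are near-identical copies on chromosome 17, and the counting could have split reads between them.

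Dnaja1, the main class A J-domain partner of cytosolic HSP70, had 5.84, 7.54 and 6.19 FPKM in cadmium libraries and 10.9, 16.5 and 13.3 FPKM in control libraries. The groups did not overlap and the cadmium mean was 48.1% of the control mean. The log2 difference was -0.94 (SE 0.16), and its adjusted p of 0.0177 was the smallest of the members (0.0398 with the block). Dnaja1 is at chr4:40722150-40737149 on the plus strand and overlaps Smu1 and Gm6297 on the other strand and the microRNA gene Mir207; whether the authors counted reads by strand is not given in the sources used here.

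Dnaja2, the second class A partner of HSP70, had 10.2, 10.4 and 9.83 FPKM in cadmium libraries and 13.2, 15.7 and 13.4 FPKM in control libraries. The cadmium libraries lay within a narrow range below all controls, with a log2 difference of -0.44 (SE 0.10) and an adjusted p of 0.0397, or 0.0839 with the block and 0.0699 without the look-alike libraries. Dnaja3, a class A protein of mitochondria and the most abundant Dnaja gene, had 12.1, 15.3 and 13.8 FPKM in cadmium libraries and 12.6, 14.8 and 16.0 FPKM in control libraries, which overlapped (log2 difference -0.07, SE 0.13, adjusted p = 0.778). Dnaja4 was below the FPKM filter.

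Dnajb1, the class B co-chaperone that works with HSP70 and HSP110 in dissolving aggregates, had 2.87, 3.67 and 2.86 FPKM in cadmium libraries and 4.62, 5.04 and 5.15 FPKM in control libraries. The groups did not overlap, and the log2 difference was -0.53 (SE 0.10, adjusted p = 0.0244, or 0.0627 with the block). Dnajb6, a class B protein that suppresses aggregation of polyglutamine proteins, had 2.98, 3.40 and 3.08 FPKM in cadmium libraries and 4.98, 4.36 and 4.05 FPKM in control libraries. It too was lower in all cadmium libraries (log2 difference -0.39, SE 0.09, adjusted p = 0.0431, or 0.0978 with the block and 0.0776 without the look-alike libraries), and its gene body overlaps the predicted gene Gm5129 and 2 pseudogenes on the other strand. Dnaja2 (chr8:85537633-85555344, minus strand) and Dnajb1 (chr8:83608193-83612653, plus strand) overlap no other annotated gene, and Dnajb6 lies at chr5:29735688-29818134 on the plus strand.

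The most abundant Dnajb genes belong to the endoplasmic reticulum. Dnajb12, a membrane protein of that compartment, had 11.1, 11.5 and 12.2 FPKM in cadmium libraries and 9.38, 11.7 and 10.6 FPKM in control libraries. Dnajb11, which serves the HSP70 of its lumen, had 9.53, 8.63 and 10.6 FPKM in cadmium libraries and 10.5, 11.2 and 11.4 FPKM in control libraries. Both overlapped between groups, with log2 differences of 0.13 (SE 0.11, adjusted p = 0.475) and -0.19 (SE 0.10, adjusted p = 0.279). Dnajb4, a cytosolic class B protein and the member with the smallest p among those not called, had 1.57, 1.44 and 1.57 FPKM in cadmium libraries and 1.71, 2.12 and 2.07 FPKM in control libraries. Its groups did not overlap (log2 difference -0.23, SE 0.08, adjusted p = 0.130), and it was called lower on the deposited log2 values (adjusted p = 0.0211).

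Dnajc28 was the only member called higher by the FPKM fit. It had 1.58, 1.91 and 2.12 FPKM in cadmium libraries and 1.12, 0.810 and 1.21 FPKM in control libraries, without overlap, from 178 to 607 reads a library. The log2 difference was 0.49 (SE 0.11, adjusted p = 0.0354, or 0.0750 with the block), and leaving out any 1 of the 6 libraries (adjusted p 0.0570 to 0.132) or the look-alike pair (0.102) ended the call. It lies at chr16:91614254-91619026 on the minus strand and overlaps the antisense gene Gm15964 on the other. The Dnajc class as a whole, whose members carry the J domain in many kinds of protein, had 0 of 19 tested genes called lower (2 at an unadjusted p under 0.05, and 1, Dnajc11, called on the deposited log2 values) and a median log2 difference of 0.07, beside 0.09 for all genes. Dnajc22, the most abundant of them, had 30.3, 30.0 and 28.9 FPKM in cadmium libraries and 29.9, 29.2 and 31.4 FPKM in control libraries, with a log2 difference of -0.02 (SE 0.10, adjusted p = 0.920). Dnajc30, a mitochondrial member, had 8.23, 9.32 and 8.79 FPKM in cadmium libraries and 7.04, 6.70 and 7.97 FPKM in control libraries. Its groups did not overlap, at a log2 difference of 0.25 (SE 0.10, adjusted p = 0.152). Dnajc13, an endosomal protein, had 2.48, 2.53 and 2.60 FPKM in cadmium libraries against 1.85, 2.16 and 2.21 FPKM in control libraries (log2 difference 0.21, SE 0.08, adjusted p = 0.146).

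The chaperonin genes of mitochondria were not called. Hspd1, the HSP60 ring subunit, had 51.7, 54.4 and 54.8 FPKM in cadmium libraries and 48.1, 68.0 and 61.1 FPKM in control libraries, and Hspe1, its HSP10 lid, had 19.5, 25.7 and 22.4 FPKM in cadmium libraries and 25.6, 30.2 and 28.03 FPKM in control libraries. Both overlapped between groups, with log2 differences of -0.12 (SE 0.15, adjusted p = 0.651) and -0.30 (SE 0.13, adjusted p = 0.194). Hspe1 was called lower on the deposited log2 values (adjusted p = 0.0478). Pseudogene rows of this family can share reads with the parent genes, and the most abundant, Hspd1-ps3, had means of 4.44 ± 0.47 FPKM in cadmium and 5.02 ± 1.27 FPKM in control libraries (SD, n = 3 each).

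Among the small heat shock proteins 0 of 3 tested genes were called by limma (2 were lower at an unadjusted p under 0.05). The authors' deposited table has all 3 lower, at an FDR of 0.00806 for Hspb1, 0.0126 for Hspb8 and 0.0386 for Hspb6. Hspb8, which acts with Bag3 in clearing damaged proteins by autophagy, had 30.9, 35.4 and 31.8 FPKM in cadmium libraries and 34.7, 37.3 and 44.3 FPKM in control libraries, which overlapped (log2 difference -0.23, SE 0.13, adjusted p = 0.304). Hspb1, the actin-binding HSP27, had 4.27, 8.13 and 3.93 FPKM in cadmium libraries and 10.4, 9.73 and 7.03 FPKM in control libraries. Cadmium replicate 2 lay above the lowest control library, and the log2 difference of -0.68 (SE 0.26) had an adjusted p of 0.157, which was 0.0309 without that library and 0.0352 without the look-alike pair. Hspb6, known as HSP20, had 1.31, 1.41 and 1.29 FPKM in cadmium libraries and 1.64, 1.63 and 1.71 FPKM in control libraries. Its groups did not overlap (log2 difference -0.18, SE 0.07, adjusted p = 0.131), and it was called lower after quantile normalization (adjusted p = 0.0444).

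**Figure D2:**
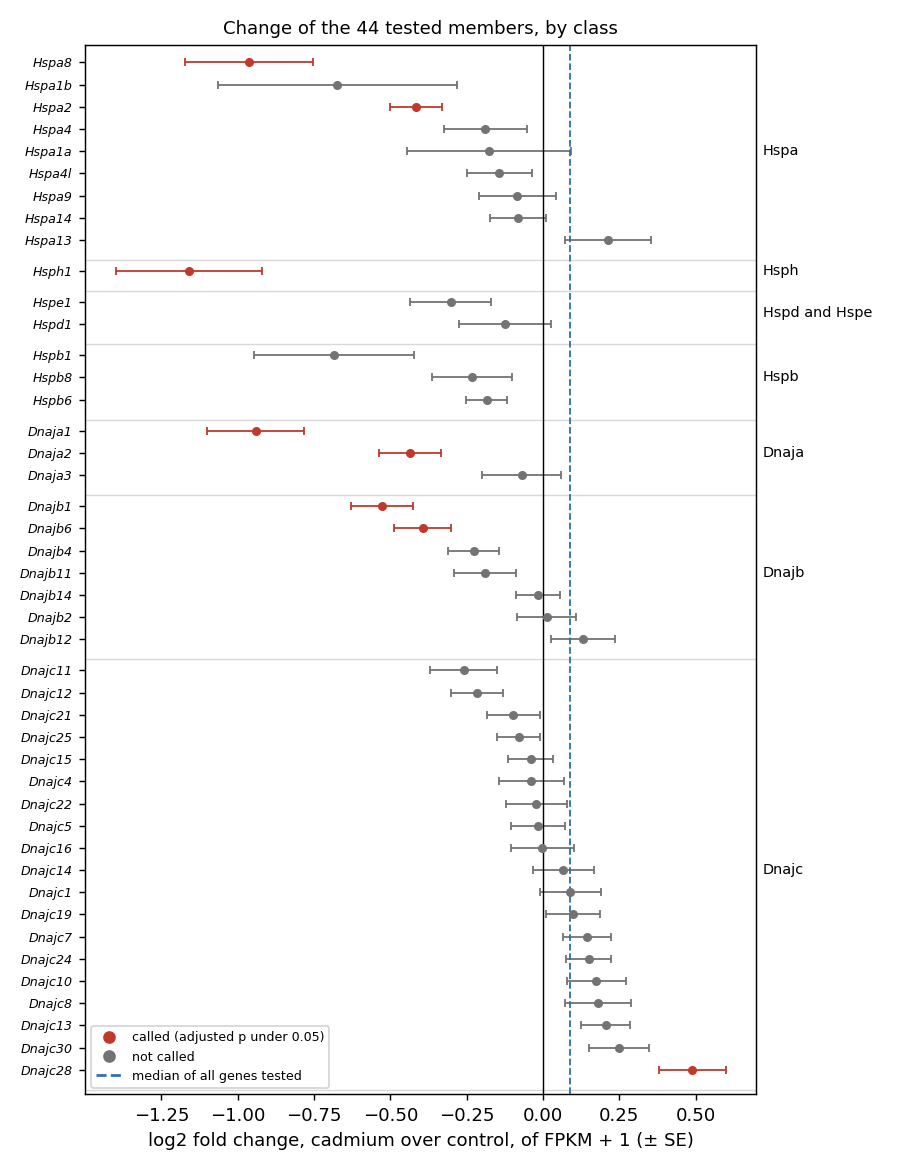
Log2 fold change, cadmium over control, of FPKM + 1 (horizontal axis, ± SE) for the 44 tested members, grouped by class, with called members in red, the others in grey and the median of all tested genes (0.09) as a dashed line. The called decreases sit in the Hspa, Hsph, Dnaja and Dnajb classes, from -0.39 to -1.16, while the Dnajc genes lie on both sides of the dashed line.

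Promoters of 4 genes are shown because they hold the repeated heat shock element in its strict form: Hsph1 and Dnajb6, both called lower, Hspe1, which was not called and shares its start region with the divergent Hspd1, and the HSP90 co-chaperone Chordc1, called lower. Chordc1 is not a member and was chosen with its call known, and matches in the other co-chaperones are not given. Whether the motif goes with lower values was not tested. The windows are RefSeq sequences of GRCm38.p6, from 250 bases before the transcript start to 50 bases after it, 5′ to 3′ on the gene's strand: chr5:149636287-149636586 (minus) for Hsph1, chr5:29735648-29735947 (plus) for Dnajb6, chr1:55087898-55088197 (plus) for Hspe1 and chr9:18292017-18292316 (plus) for Chordc1. Capitals mark every match to the 3-unit motif GAANNTTCNNGAA or its reverse complement TTCNNGAANNTTC.
Hsph1: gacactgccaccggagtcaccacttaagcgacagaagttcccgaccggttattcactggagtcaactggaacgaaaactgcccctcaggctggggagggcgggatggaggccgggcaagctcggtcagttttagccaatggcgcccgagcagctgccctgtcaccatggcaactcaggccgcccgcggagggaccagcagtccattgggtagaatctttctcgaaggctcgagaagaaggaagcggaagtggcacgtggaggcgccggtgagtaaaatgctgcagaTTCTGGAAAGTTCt
Dnajb6: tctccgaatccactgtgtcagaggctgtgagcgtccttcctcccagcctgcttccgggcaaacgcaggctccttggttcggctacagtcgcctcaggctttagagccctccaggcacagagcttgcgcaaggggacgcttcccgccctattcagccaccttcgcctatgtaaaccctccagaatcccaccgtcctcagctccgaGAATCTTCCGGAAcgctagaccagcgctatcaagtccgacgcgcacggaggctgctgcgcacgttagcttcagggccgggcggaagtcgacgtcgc
Hspe1: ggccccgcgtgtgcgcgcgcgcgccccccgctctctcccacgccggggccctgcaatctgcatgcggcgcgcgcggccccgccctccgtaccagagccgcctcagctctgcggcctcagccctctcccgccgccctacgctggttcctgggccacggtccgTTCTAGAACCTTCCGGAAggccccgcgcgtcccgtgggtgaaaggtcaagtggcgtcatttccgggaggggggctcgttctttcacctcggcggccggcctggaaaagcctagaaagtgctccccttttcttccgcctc
Chordc1: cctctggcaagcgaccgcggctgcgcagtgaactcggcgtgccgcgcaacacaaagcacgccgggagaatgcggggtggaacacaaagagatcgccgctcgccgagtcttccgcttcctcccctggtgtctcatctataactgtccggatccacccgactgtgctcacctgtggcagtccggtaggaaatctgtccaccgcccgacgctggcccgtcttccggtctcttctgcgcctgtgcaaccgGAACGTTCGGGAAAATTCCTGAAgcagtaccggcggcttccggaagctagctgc

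The Hsph1 match starts 37 bases into the transcript counted from 1 at its first base, and the Dnajb6 match starts at -46, counted back from -1 at the base before the start. In Hspe1, 2 overlapping matches (from -89 and -84) fill 18 bases, and in Chordc1, 3 overlapping matches (from -4, 2 and 7) fill 23 bases. A window holding the 3-unit motif was found for 4 of 52 members with an entry (7.69%; Hsph1, Dnajb6, Hspe1 and Hspd1), against 179 of 27025 genes (0.662%). Hspe1 and the divergent Hspd1 share their start region, so the same matches may be counted for both. The shorter motifs GAANNTTC and TTCNNGAA, each its own reverse complement and contained in the longer one, were found for 14 of 52 members (26.9%) against 17.0% of all genes. Of the 6 members called lower that have an entry (Hspa8 has none), 3 held the shorter motif (Dnaja1, Dnajb6 and Hsph1), as did 9 of 29 tested members not called (31.0%). A match describes letters in a window and is not a binding site.

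The 7 members called lower, the filter-bound Hspa2 among them, act in the cytosol and nucleus. Of 22 tested members assigned there from general knowledge, limma called 7 lower, against 1.82% of all genes, and 0 higher, against 7.86%; 3 were called lower with the block. At an unadjusted p under 0.05, 11 of the 22 were lower and 0 higher, against 569 and 2105 of all 9908 genes. The median log2 difference of the 22 was -0.22. Of 8 tested members of the endoplasmic reticulum 0 were called by limma and 0 had an unadjusted p under 0.05, with a median of 0.08. Of 8 tested members assigned to mitochondria 0 were called, 1 was lower (Dnajc11) and 1 higher (Dnajc30) at an unadjusted p under 0.05, and the median was -0.08. The other 6 tested members were assigned to none of these compartments, and 1 of them, Dnajc28, was called higher. With limma on the deposited log2 values 8 of the 22 cytosolic and nuclear members were called lower and 0 higher, against 4.98% and 3.85% of all genes. In that fit the mitochondrial Dnajc11 and Hspe1 were called lower as well. Of the endoplasmic reticulum 0 members were called there, 1 having an unadjusted p under 0.05. The authors' deposited table has 1 member of that compartment, Dnajb11, lower (log2 difference -0.39, FDR 0.0111). Whether compartments differ was not tested.

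Over all 44 tested members the median log2 difference was -0.08, beside 0.09 for all genes, and 31 of 44 were below 0, against 33.3% of all genes. Within groups, cadmium replicate 2 was the highest cadmium library for 22 of 44 tested members and 6 of the 7 called lower. Control replicate 1 was the lowest control library for 28 of 44 and 5 of the 7. The same shares were not worked out over all genes, so whether this is particular to the members is not known. The part of these 2 libraries in the results was not tested beyond leaving them out. Without both of them, 5 members (Dnaja1, Dnajb1, Hspa8, Hspb1 and Hsph1) were called lower and 0 higher (2 at an unadjusted p under 0.05), against 2.46% and 4.82% of all genes.

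**Figure D3:**
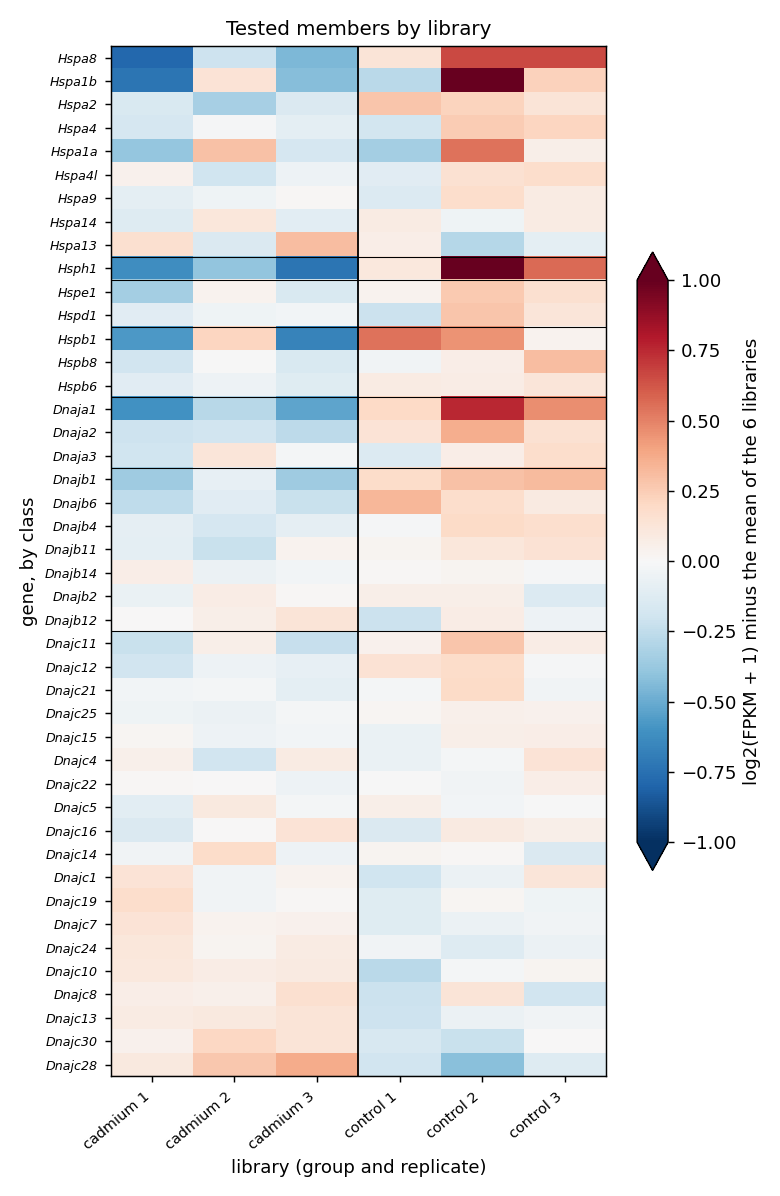
Log2(FPKM + 1) of the 44 tested members minus the mean of the gene over the 6 libraries (colour, blue below and red above), genes in rows by class and libraries in columns, cadmium left of control. The Hspa8, Hsph1 and Dnaja1 rows are blue in all 3 cadmium libraries and red in all 3 control libraries, palest in control replicate 1, while Hspa1a and Hspa1b are red in replicate 2 of both groups.

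Summed over all 64 members, FPKM came to 384, 438 and 413 in cadmium libraries and 448, 557 and 538 in control libraries. The highest cadmium library was below the lowest control library. Without Hspa8 the sums were 335, 365 and 351 FPKM in cadmium libraries and 356, 424 and 404 FPKM in control libraries, and the groups overlapped. The 4 Dnaja genes summed to 31.0 ± 2.59 FPKM in cadmium and 42.8 ± 5.22 FPKM in control libraries, and the 26 Dnajc genes to 86.7 ± 0.98 FPKM in cadmium and 83.4 ± 2.60 FPKM in control libraries (SD, n = 3 each). No test was run on these sums.

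**Figure D4:**
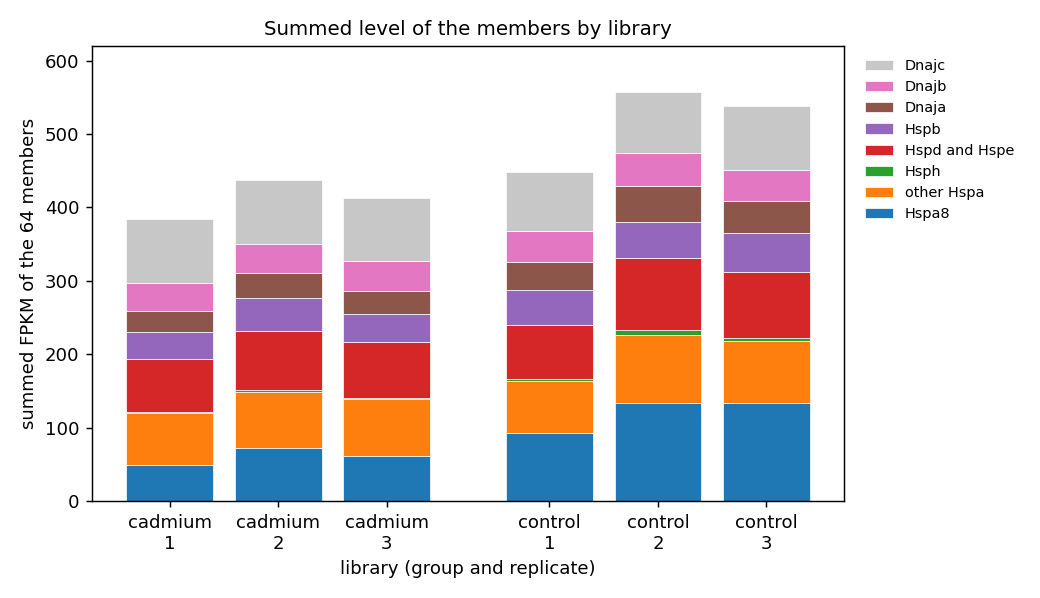
Summed FPKM of the 64 members in each library (stacked bars from 0), coloured by class with Hspa8 apart, 3 cadmium libraries left of 3 control libraries. The bars reach 384 to 438 FPKM in cadmium and 448 to 557 FPKM in control libraries, and the Hspa8 block at the bottom is 48.6 to 72.8 FPKM in cadmium and 92.2 to 134 FPKM in control libraries.

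The 20 members outside the test were lowly expressed, 17 of them below 1 FPKM in every library. They ranged from 1 read in all 6 libraries together for Dnajc5b, a relative of the synaptic vesicle protein Dnajc5, to 2020 reads for Dnajc2, a J-domain protein of the ribosome, whose mean was 0.988 FPKM in cadmium and 0.995 FPKM in control libraries. In each of the 20 the groups overlapped, and this includes the testis gene Hspa1l and the muscle small heat shock proteins Hspb2 and Hspb7.

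The authors' deposited table gives its own log2 difference (cadmium over control) and FDR. The submitters' processing notes list DESeq2 without saying what it was used for. By the authors' deposited table, 17 of 64 members had an FDR under 0.05 and a lower value in cadmium, against 3.15% of its 34352 genes. A higher value at such an FDR was held by 1 member, Dnajc28, against 3.72% of genes. Of the 34352 genes 9908 passed the FPKM filter, as did 44 of the 64 members. Low genes therefore weigh more in these shares of all genes than among the members. The 17 in the authors' deposited table are the 7 called lower from FPKM and Dnajb4, Dnajb11, Dnajc11, Dnajc12, Hspa4, Hspa4l, Hspb1, Hspb6, Hspb8 and Hspe1. Differences of called genes were larger there: in the authors' deposited table they were -1.75 for Hsph1, -1.01 for Hspa2, -0.84 for Dnajb1 and -0.68 for Dnajb6. With a pseudocount of 0.1 FPKM in place of 1 they were -1.52 for Hsph1, -0.76 for Hspa2, -0.65 for Dnajb1 and -0.49 for Dnajb6. The deposited values also use another scaling of the libraries.

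Of 34 tested genes in a list of 37 heat shock factors and co-chaperones of HSP70 and HSP90, 1 was called lower and 2 higher, beside 1.82% and 7.86% of all genes, and the list's median log2 difference was -0.03. On the deposited log2 values 6 were called lower and 0 higher, beside 4.98% and 3.85% of all genes. Chordc1, which binds HSP90, had 1.55, 1.87 and 1.34 FPKM in cadmium libraries and 2.81, 3.05 and 3.09 FPKM in control libraries. The groups did not overlap (log2 difference -0.63, SE 0.09, adjusted p = 0.0133, or 0.0503 with the block), and Chordc1 lies at chr9:18292125-18317442 on the plus strand. Grpel2, a nucleotide exchange factor for the HSP70 of mitochondria, had 4.35, 4.24 and 3.99 FPKM in cadmium libraries and 3.30, 2.86 and 2.58 FPKM in control libraries. It was called higher (log2 difference 0.41, SE 0.09, adjusted p = 0.0371, or 0.0703 with the block) but not after quantile normalization, where 0 genes of the list were called higher. Serpinh1, the collagen chaperone HSP47, had 5.23, 3.34 and 5.04 FPKM in cadmium libraries and 2.13, 2.77 and 2.67 FPKM in control libraries (log2 difference 0.64, SE 0.15, adjusted p = 0.0441, or 0.110 with the block). Collagen-producing stellate cells express it, and the summed stellate cell and fibroblast markers were 36.8 to 42.2 FPKM in cadmium and 15.2 to 23.1 FPKM in control libraries; their part in the Serpinh1 value was not tested.

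The heat shock factors themselves were not called by limma on FPKM. Hsf1 had 1.07, 1.32 and 0.914 FPKM in cadmium libraries and 1.03, 1.59 and 1.19 FPKM in control libraries (log2 difference -0.11, SE 0.12, adjusted p = 0.589), and Hsf2 had an adjusted p of 0.821. Hsf4, singled out after its values were seen, had 1.49, 1.33 and 1.64 FPKM in cadmium libraries and 2.63, 2.14 and 1.98 FPKM in control libraries. Its groups did not overlap (log2 difference -0.38, SE 0.10, adjusted p = 0.0514), and it was called lower after quantile normalization and on the deposited log2 values. Bag3, a co-chaperone induced by heat stress, had 4.68, 3.78 and 4.69 FPKM in cadmium libraries and 3.91, 6.56 and 6.17 FPKM in control libraries, which overlapped (log2 difference -0.26, SE 0.17, adjusted p = 0.378). Hsp90aa1, the inducible cytosolic HSP90, had 12.0, 9.33 and 13.2 FPKM in cadmium libraries and 14.0, 23.6 and 19.8 FPKM in control libraries. Its groups did not overlap at a log2 difference of -0.67 (SE 0.20, adjusted p = 0.0846), and it was called lower on the deposited log2 values (adjusted p = 0.0234) and by voom on recovered reads (0.0353). The constitutive Hsp90ab1 had 114, 140 and 128 FPKM in cadmium libraries and 136, 169 and 153 FPKM in control libraries, which overlapped (log2 difference -0.26, SE 0.15, adjusted p = 0.315). Of 13 tested genes in a list of the cytosolic chaperonin CCT and prefoldin, which fold actin and tubulin, 0 were called by limma. Of all genes 1.82% were called lower and 7.86% higher. At an unadjusted p under 0.05 in that fit 0 of the 13 passed, against 569 lower and 2105 higher of all 9908 genes. By voom 0 were called, against 3.82% lower and 5.34% higher of all genes. At an unadjusted p under 0.05 by voom 5 of the 13 were lower, and the share of all genes was not worked out.

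**Figure D5:**
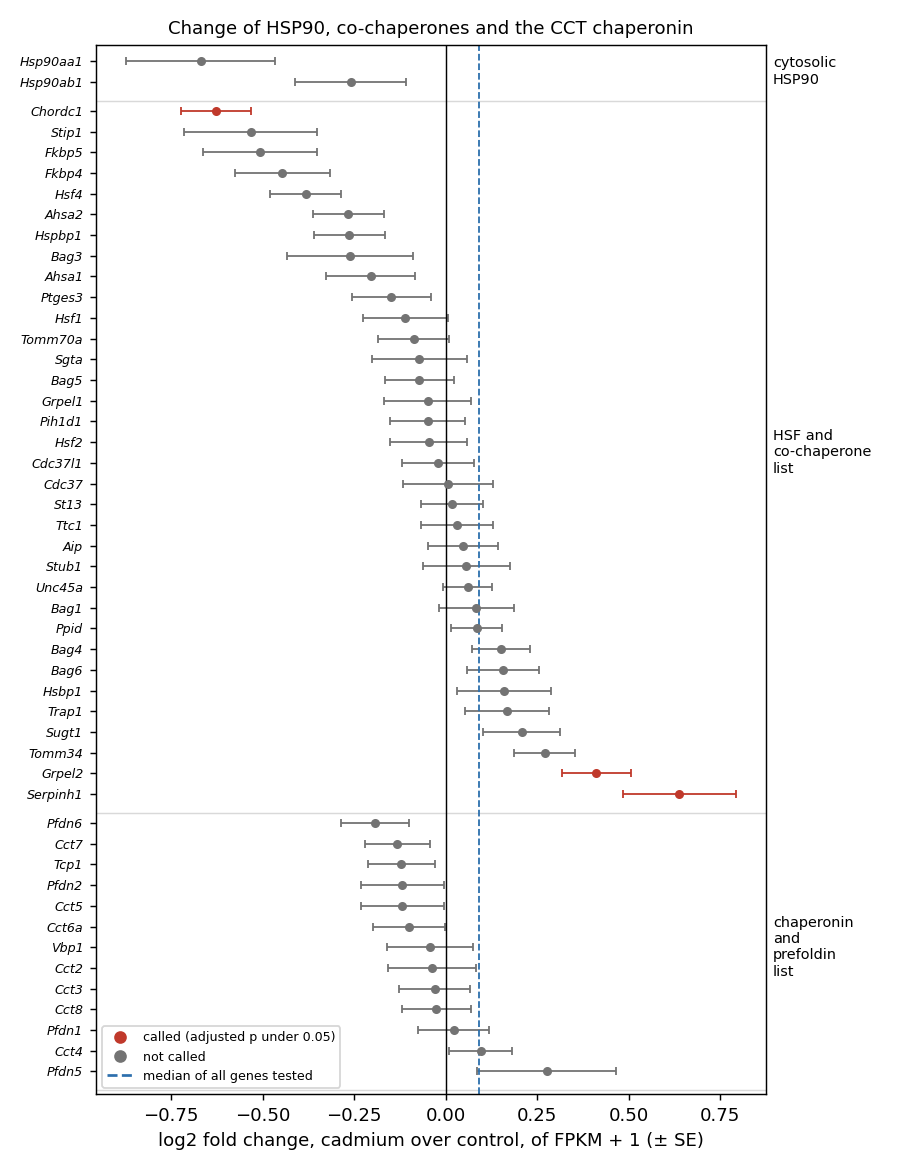
Log2 fold change, cadmium over control, of FPKM + 1 (horizontal axis, ± SE) for the cytosolic HSP90 genes, the tested heat shock factors and co-chaperones and the CCT and prefoldin genes, with called genes in red and the median of all tested genes as a dashed line. Chordc1 (-0.63) is the called decrease and Grpel2 (0.41) and Serpinh1 (0.64) are the called increases, and the CCT and prefoldin genes lie between -0.19 and 0.28.

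Clock genes and markers of other liver cells were also called between the same groups. Of 18 tested clock genes 10 were called lower and 3 higher, against 1.82% and 7.86% of all genes. The counts were 6 and 1 with the block, against 0.646% and 1.86% of all genes. Without the look-alike pair they were 9 and 2, against 2.46% and 4.82%, and with 1 library left out 2 to 10 and 0 to 3. The clock output gene Ciart had 0.568, 0.779 and 0.394 FPKM in cadmium libraries and 4.23, 3.52 and 5.40 FPKM in control libraries. Ciart, counted among the 10, passed the filter on low values through its control libraries alone and so had to differ. The repressor Nr1d1 had 35.1, 30.7 and 30.7 FPKM in cadmium libraries and 9.16, 5.46 and 11.9 FPKM in control libraries. Nr1d1 was called higher in the main fit but was not called without the look-alike pair. The period genes Per2 and Per3 were lower, with adjusted p of 0.0118 and 0.00688. Cirbp, a cold-inducible RNA-binding protein, had 4.81, 3.79 and 3.72 FPKM in cadmium libraries and 2.72, 2.48 and 1.87 FPKM in control libraries (adjusted p = 0.0312). That call was lost after quantile normalization (0.0767), trimmed mean scaling (0.0589), on the deposited log2 values (0.0643), by voom (0.0601) and in 5 of 6 fits that left out 1 library (up to 0.0896). Its relative Rbm3 was not called (log2 difference -0.25, adjusted p = 0.232). The time of day at which livers were taken is not given in the sources used here, and the part of these genes' differences in the chaperone results was not tested.

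For the counts of marker genes below, 7.86% of all genes were called higher and 1.82% lower in the main fit, and 1.86% and 0.646% with the block. Kupffer cell and macrophage markers summed to 108 to 124 FPKM in cadmium and 53.0 to 90.4 FPKM in control libraries, with 5 of 12 tested called higher and 1 lower. The 5 became 2 with the block, 0 without cadmium replicate 3 or without the look-alike pair, 1 without cadmium replicate 1, 2 without cadmium replicate 2 or control replicate 3, 3 without control replicate 1 and 8 without control replicate 2. The 1 lower was Cd163, whose mean over all libraries was under 1 FPKM, so it passed the filter on low values through its higher libraries alone. Cd163 was also called lower without that filter. Stellate cell and fibroblast markers had 8 of 9 tested called higher (4 with the block, 6 without the look-alike pair, and 4 to 7 with 1 library left out). Sinusoidal endothelial markers, at 42.4 to 56.0 FPKM in cadmium and 30.2 to 44.2 FPKM in control libraries, had 2 of 9 called higher. That count was 0 with the block, 0 without the look-alike pair, and 0 to 4 with 1 library left out. Of 9 hepatocyte markers 1 was called lower, and 0 with the block. Neutrophil markers were low, at 1.303 to 1.748 FPKM in cadmium and 0.0799 to 0.651 FPKM in control libraries, and the 1 tested, S100a9, was called higher (adjusted p = 0.0337, or 0.0657 with the block). It had 1.098, 1.102 and 1.014 FPKM in cadmium libraries and was listed at 0, 0.579 and 0 FPKM in control libraries. S100a9 thus passed the filter on low values through its cadmium libraries alone and had to differ. The call was lost with a pseudocount of 0.1, after quantile normalization, on the deposited log2 values, by voom and without the look-alike pair. Lymphocyte markers summed to 1.72 to 2.56 FPKM in cadmium and 1.21 to 2.53 FPKM in control libraries. Every gene of these lists had reads in at least 1 library. Their part in the chaperone results was not tested.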

How the data were processed

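Liver input RNA of 3 cadmium and 3 control libraries was read as 150-base pairs per the labels. STAR 2.7.1a, SAMtools 1.3.1 and cutadapt 1.1.8 were used with the mm10 genome, per the submitters' processing notes; the sources used here name no counter, annotation or strand setting. The authors deposited FPKM for 55335 genes by identifier, and log2 values with symbols, group means, log2 differences, p-values and FDR for 34352 genes. Undoing log2 and subtracting 1 from the deposited log2 values gave whole multiples of 1 step per library; dividing by that step gave whole reads within 0.05 for 100% of values, so the values are counts divided by a size factor. No sample column was left unused.

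The 9908 genes that reached an FPKM of 1 in 3 or more libraries were fitted as log2(FPKM + 1) with limma 3.58.1 in R 4.3.3 (variance trend, robust, two-sided), with Benjamini-Hochberg adjustment over all of them; the script was tested on simulated data. The offset understates changes of low genes. Since no table holds raw counts, no count model was the main test. Replicate numbers are the batch numbers of the labels, so the block pairs 1 cadmium with 1 control library; deviations of same-numbered libraries correlated at -0.21, -0.23 and -0.02. The members and lists were chosen with earlier results of these data known. Named genes were the called members, the 2 most abundant of each class, the 3 of smallest p not called, the called co-chaperones with Hsf1, Hsf2 and Bag3, and 8 clock, cold and metal genes; Hspa1a, Hspa1b, Hsp90aa1, Hsp90ab1 and genes named by compartment or promoter were added after values were seen. Gene positions are from GENCODE vM21 (GRCm38), and promoters from RefSeq's table, which had an entry for 52 of 64 members.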

Additional observations from a re-analysis of the deposited data

How the results depend on the processing

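The 7 members called lower had log2 differences below 0 under all 16 alternatives, and Dnajc28 above 0. In these genes the groups did not overlap, so most alternatives could not have changed the sign. Only those that rescale the libraries could have: quantile normalization, trimmed mean scaling, the deposited log2 values and voom. Counts of calls moved more. Without the filter on low FPKM (34351 genes tested) 0 members were called lower and 0 higher (10 and 5 at an unadjusted p under 0.05), with 6 genes lower and 31 higher in all, and 0 and 0 co-chaperones. With the replicate block, whose pairing comes from the batch labels, 3 members were called lower and 0 higher, with 64 genes lower, 184 higher, and 0 co-chaperones either way. Quantile normalization gave 0 members higher, 298 genes lower and 347 higher, and 3 and 0 co-chaperones. Trimmed mean scaling gave 0 members higher, 474 genes higher, and 2 and 0 co-chaperones. The deposited log2 values gave 0 members higher (10 lower), 493 genes lower and 381 higher, and 6 and 0 co-chaperones. Voom on recovered reads gave 378 genes lower (529 higher), 4 co-chaperones lower and 0 higher, with 8 members lower and 1 higher. Without trend and robust moderation Dnajb6 lost its call (adjusted p = 0.0522; 6 members lower) and 1 co-chaperone was higher. Without cadmium replicate 2 and control replicate 1 together, 0 members and 478 genes were higher and 244 genes lower. Leaving out 1 library at a time gave 0 to 5 members lower and 0 higher, 23 to 242 genes lower and 78 to 539 higher, and 0 to 2 co-chaperones lower and 0 to 1 higher. Dnaja1 kept its call in 3 of 6 such fits, Hspa8, Hsph1 and Dnajb1 in 2, Dnaja2 in 1, and Dnajb6, Hspa2 and Dnajc28 in 0; the causes were not tested, and these fits have fewer samples. The median of all genes was 0.09 in FPKM, -0.01 once quantiles were normalized and -0.06 on the deposited log2 scale, and the members' median lay 0.04 to 0.24 below it under every alternative. A filter on mean FPKM of at least 1, added after seeing the data, changed no member's call. With 3 libraries a group, differences within the spread between libraries were not detectable, and low genes such as Hspa2 rest on 113 to 272 reads a library.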
